A study of Mus musculus with 6 samples.

Results

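The genes described here encode the cytosolic ribosomal proteins, the protein parts of the ribosomes that translate nuclear-encoded messenger RNA. They were taken from the array's annotation as every gene whose symbol begins with Rpl or Rps and a digit, together with Rplp0, Rplp1, Rplp2 and Rpsa where present. Ribosomal S6 kinases, the binding protein Rps19bp1 and named pseudogenes were left out, and only probe sets annotated to 1 symbol were used. This gave 49 genes of the 18193 genes named on the array, each represented by its probe set of highest mean log2 signal over the 6 arrays. The rule itself uses symbols and mean signals, not differences between tissues, but it was drawn up with earlier results of these data known.

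The samples are sorted megakaryocyte progenitors, the precursors of platelet-forming cells, from GATA1s mice on the C57BL/6 strain. The sort kept cells that lacked lineage markers and Sca-1 and carried c-kit, CD150 and CD41. All 6 samples carried GATA1s, a form of the transcription factor GATA1 that lacks its amino-terminal part, and no comparison with full-length GATA1 was made. The adult tissue was bone marrow (3 arrays, mice of 12 to 18 weeks) and the fetal tissue was liver (3 arrays, embryos at E13.5). The labels call the samples biological replicates without stating how many animals each held, and a p-value here reflects only how far these samples differ among themselves, which may be technical. Values are MAS5 signals, which are linear intensities, and every log2 fold change is given as fetal liver over bone marrow.

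A ribosome joins a small subunit, which reads the messenger RNA, to a large subunit, which forms the peptide bond. Each subunit holds 1 copy of most of its proteins, so their genes are expressed at high and coordinated levels, and many of their messages begin with a pyrimidine tract through which mTOR signalling controls their translation. Loss of 1 copy of certain ribosomal protein genes causes Diamond-Blackfan anaemia, a failure of red cell production, and mutations that leave only GATA1s cause a similar anaemia in some families. Ribosomal protein shortage is also known to lower translation of GATA1 messages in erythroid precursors. A few ribosomal proteins have paralogs with restricted expression that can replace the canonical protein.

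Pyrimidine runs near the annotated transcription start were searched, and stretches are shown for some genes whose signals the results turn on. A run counted here can lie wholly before or after the start, so it need not begin the message. Sequences are from RefSeq on build GRCm38.p6, 5′ to 3′ on the coding strand, from 50 bases before the start through the first 20 transcribed bases. Capitals mark the longest run of at least 8 pyrimidines (C or T) that overlaps the 25 bases on either side of the start. Rpl14 and Rpl39l were higher in fetal liver, Rpl39 and Rps4x are the canonical partners of changed paralogs, and Rpl35 is among the 3 genes of highest signal.
Rpl14 (chr9:120571467-120571536, plus strand): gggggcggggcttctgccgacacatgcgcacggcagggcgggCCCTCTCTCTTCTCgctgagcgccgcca
Rpl39l (chr16:10170178-10170247, plus strand): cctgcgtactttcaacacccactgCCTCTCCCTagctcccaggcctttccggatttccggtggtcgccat
Rpl39 (chrX:37085203-37085272, minus strand): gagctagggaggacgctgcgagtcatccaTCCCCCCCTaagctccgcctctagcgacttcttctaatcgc
Rps4x (chrX:102189372-102189441, minus strand): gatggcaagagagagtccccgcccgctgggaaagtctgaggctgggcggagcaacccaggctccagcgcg
Rpl35 (chr2:39005112-39005181, minus strand): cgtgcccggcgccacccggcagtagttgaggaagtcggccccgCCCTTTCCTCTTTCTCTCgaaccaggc
In Rpl14 and Rpl35 the run spans the annotated start. In Rpl39l and Rpl39 it lies wholly before it, and the Rps4x window holds none. Of genes not shown, Rpl41, also called higher in fetal liver, had no such run. Rpl19, the gene of highest signal, had a start window with a run and another without. Such a run was found in 25 of the 43 genes with a start in the table, and in 26 of their 51 start windows (51.0%), against 24.1% of 32851 windows of the same length over all genes. The remaining 6 genes, Rps4l among them, had no entry.

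Other motifs were searched on both strands of the full windows, from 250 bases before to 50 after the start. The ETS core CCGGAAG was in 41.2% of the windows of these genes and in 8.86% of all windows. TCGCGAG, shortened from a longer motif after its matches were seen, was in 25.5% against 1.93%. GGGCGG was in 52.9% against 35.7%. AAGATGG was in 15.7% against 6.34%. TATAAA (11.8% against 13.6%) and the GATA-type sequence AGATAA (5.88% against 11.2%) were not more frequent. No 2 of these 6 motifs contain each other, but occurrences within a window can overlap. These are matches of letters, and the comparison windows include non-coding and predicted genes of other base composition.

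Signals of most of these genes lay close to the top of the array's range. On each array 34 to 36 of the 49 genes exceeded the 99th percentile of all probe sets, which was 5849 to 6970, and the highest signal of any non-control probe set was 11011 to 15546. Each gene is shown by its probe set of highest mean, while the percentile covers all probe sets, which can raise the count above it. Of the 49 genes, 38 had a mean signal of at least 4096. Taken one by one, 69 of the 99 tested probe sets of these genes did. At the low end, Rpl3l, a paralog known from muscle, had signals of 0.722 to 8.43, and the Rps16 probe set read 0.267 to 0.625 on all 6 arrays. Both were below the filter, a mean signal of 22.9, and were not tested. A probe set's signal depends on its probes, so a low value for a canonical gene such as Rps16, Rpl37 or Rpl39 is no measure of its abundance beside another gene. Brighter probe sets annotated to these 3 genes together with other genes had mean signals of up to 9022 for Rps16, 10086 for Rpl37 and 9098 for Rpl39.

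**Figure D1:**
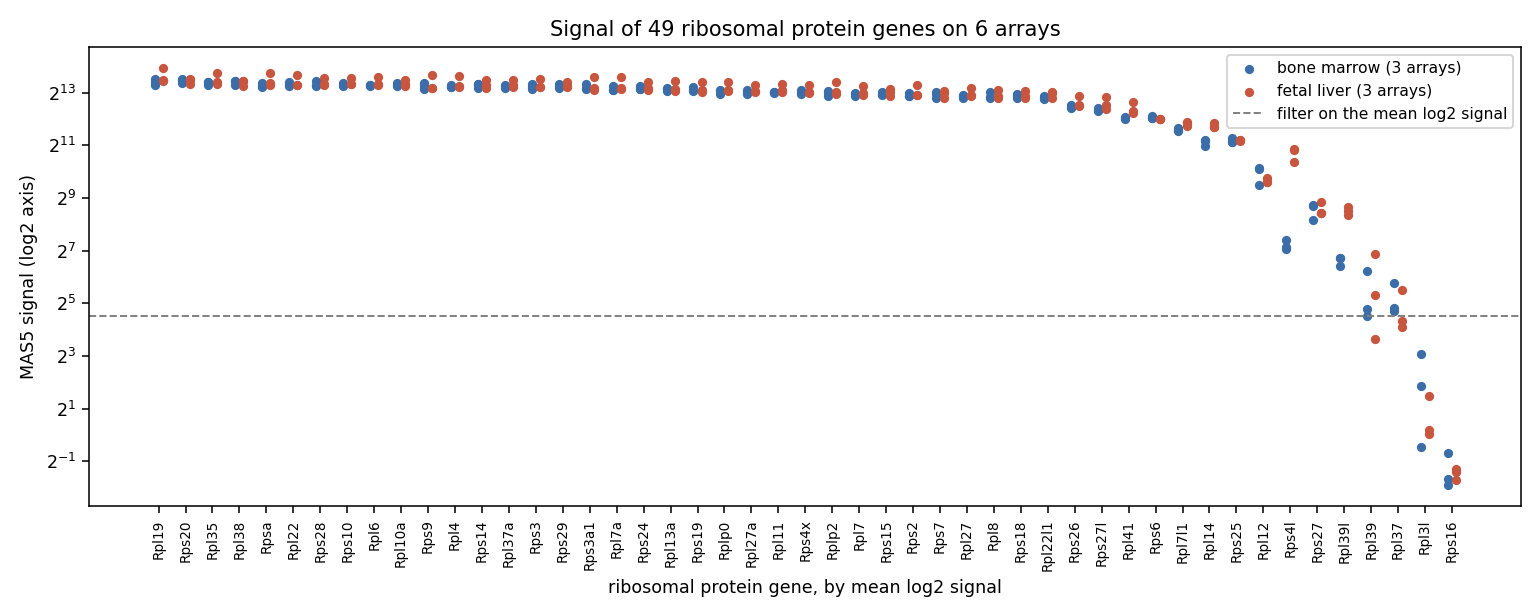
MAS5 signal of each of the 49 ribosomal protein genes (x axis, ordered by mean log2 signal) on a log2 axis, with 1 point per array, bone marrow in blue and fetal liver in red. The dashed line is the filter at a mean signal of 22.9. Most genes sit between about 4096 and the highest signals of the array with both tissues together, and the tissues stand clearly apart for Rps4l and Rpl39l and less so for Rpl14.

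Between the tissues most ribosomal protein genes differed little, and the 2 that differed by over 2-fold were both paralogs. Of the 47 genes tested, 4 were higher in fetal liver with limma at an adjusted p under 0.05 (Rps4l, Rpl39l, Rpl14 and Rpl41) and 0 were lower. Over all 11645 genes tested, 36.1% were called, 17.8% higher and 18.3% lower, and the share called among ribosomal protein genes was 8.51%. Changes of at least 2-fold were 2 of 47, both higher, against 4.01% higher and 10.6% lower over all genes. At an unadjusted p under 0.05 the counts were 5 higher and 0 lower, against 23.8% and 22.2% of all genes. The median log2 fold change was 0.09 against 0.04 over all genes, and the median absolute change was 0.10 against 0.29. All 3 arrays of one tissue lay beyond all 3 of the other for 7 of the 47 genes, 6 higher and 1 lower, against 50.5% of all genes (26.7% higher and 23.7% lower). These are whole sorted samples, in which a smaller share of cells expressing a gene and less RNA per cell cannot be told apart.

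**Figure D2:**
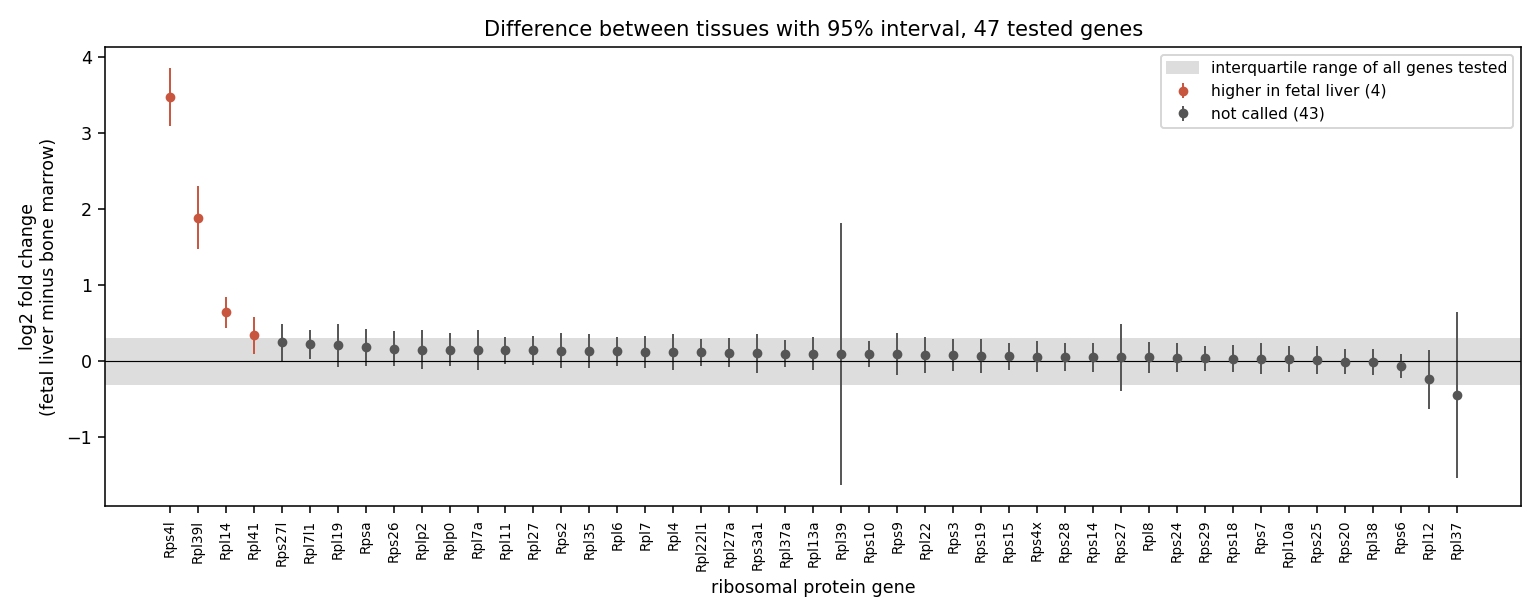
Log2 fold change (fetal liver over bone marrow) of the 47 tested ribosomal protein genes, ordered by size, with 95% intervals from limma; red marks the 4 genes called higher. The grey band is the interquartile range of all genes tested, from -0.31 to 0.29, and 41 of the 43 uncalled genes have intervals that stay within 2-fold.

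For the 43 genes not called, the intervals give the range of differences in signal that these arrays allow. Of the 43, 37 had mean signals of at least 4096. The files hold no saturation flag, so whether differences between bright signals, and these intervals with them, are compressed cannot be told from these values. The 95% interval lay within 1.41-fold in either direction for 40 of them and within 1.19-fold for 12. The 3 with wider intervals were Rpl39 (-1.63 to 1.82), Rpl37 (-1.55 to 0.64) and Rpl12 (-0.63 to 0.15). Among genes of mean signal of at least 4096, 19.6% of 817 were called, and of the 38 ribosomal protein genes among them 1 was called. The 779 other genes of that signal had a median absolute change of 0.15 against 0.10.

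**Figure D3:**
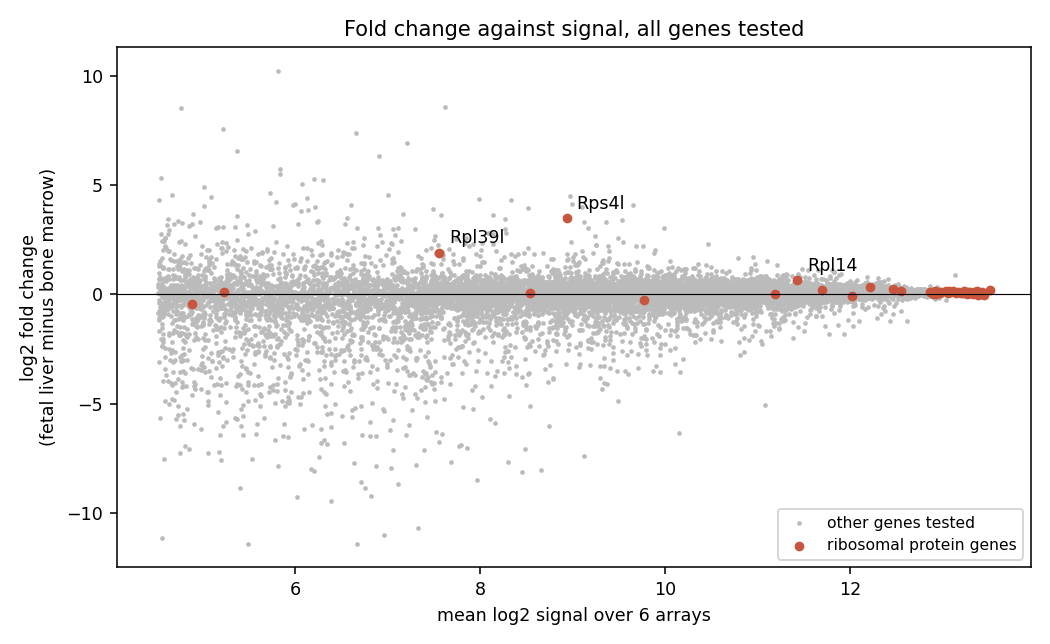
Log2 fold change (y axis) against mean log2 signal (x axis) for the 11645 genes tested, in grey, with the 47 ribosomal protein genes in red. The red points gather at the bright end close to no difference, while Rps4l (3.48) and Rpl39l (1.89) stand out at moderate signal, with Rpl14 (0.64) at higher signal. The spread of all genes also narrows toward the bright end.

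Rps4l showed the largest difference. It is a copy of Rps4x, the X-linked gene of small-subunit protein S4, and RefSeq annotates it as a transcribed pseudogene, the only gene so annotated among the 49. Its signal was 139, 170 and 134 on the bone marrow arrays and 1334, 1786 and 1835 on the fetal liver arrays. All 3 fetal liver arrays lay far above all 3 bone marrow arrays. The log2 fold change was 3.48 ± 0.17 (SE, n = 3 each; limma adjusted p = 1.46e-06), with a range of 3.39 to 3.81 over 17 alternative settings and an adjusted p of at most 8.49e-05 among them. Rps4x itself had signals of 7983, 8817 and 8400 in bone marrow and 8260, 9990 and 8046 in fetal liver. Its arrays overlapped (0.06 ± 0.09, 95% interval -0.15 to 0.26). Whether the Rps4l probes also bind Rps4x transcripts cannot be seen in these values.

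Rpl39l rose as well. It is the paralog of the X-linked gene Rpl39, whose protein lines the exit tunnel of the large subunit, and is known for expression in male germ cells. Bone marrow signals were 84.8, 105 and 105, and fetal liver signals 325, 398 and 367. The groups did not overlap, and the log2 fold change was 1.89 ± 0.18 (SE, n = 3 each; limma adjusted p = 6.60e-05). Over 17 alternatives it ran from 1.78 to 2.23, with an adjusted p of at most 6.75e-04. The only probe set annotated to Rpl39 alone was dim, with signals of 74.8, 27.8 and 23.1 in bone marrow and 12.5, 118 and 39.4 in fetal liver. Those values overlapped widely (0.09 ± 0.76). A bright probe set annotated to Rpl39 together with another gene, of mean signal 9098, was at -0.025 ± 0.075 and was not called.

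**Figure D4:**
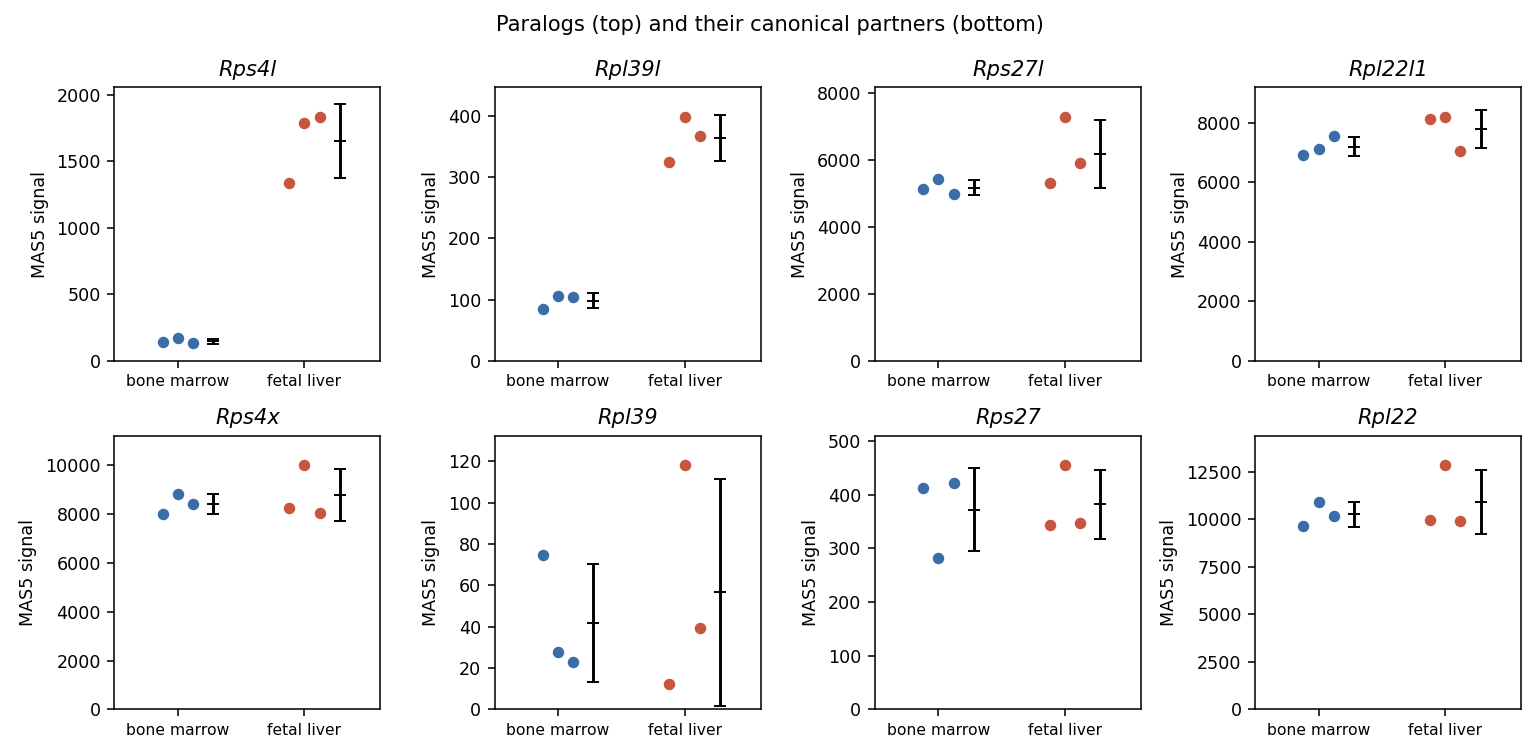
MAS5 signal, on linear axes from 0 that differ between panels, of 4 paralogs (top row) and their canonical partners (bottom row); points are the 3 arrays of each tissue and black bars the mean ± SD. The tissues are separated for Rps4l and Rpl39l, and overlap for Rps27l, Rpl22l1 and all 4 partners. The Rps27 and Rpl39 panels show dim probe sets, which do not measure abundance beside the paralog.

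The other paralogs differed by less. Rpl7l1, a relative of Rpl7 that acts in early assembly of the large subunit, had signals of 2948, 3254 and 3057 in bone marrow and 3383, 3822 and 3556 in fetal liver. Its tissues did not overlap, but the difference missed the threshold (0.22 ± 0.08, limma adjusted p = 0.0676); with the mean of its 3 probe sets it was 0.27 (adjusted p = 0.0287; range over alternatives 0.00623 to 0.239). Median centring, and leaving out fetal liver replicate 1, also brought it past the threshold. Rps27l, a paralog of Rps27 induced by p53, had a log2 fold change of 0.24 ± 0.11 (limma adjusted p = 0.114), and without fetal liver replicate 1 it was 0.34 (adjusted p = 0.0240; range over alternatives 0.0125 to 0.391). Rpl22l1, the paralog that can replace Rpl22, was at 0.11 ± 0.08 (limma adjusted p = 0.290). The partners Rpl7, Rps27 and Rpl22 were at 0.12 ± 0.09, 0.05 ± 0.20 and 0.08 ± 0.10. None of these partners passed the test. The Rps27 probe set was dim, with a mean signal of 372. A bright probe set annotated to Rps27 together with another gene, of mean signal 9658, was at 0.09 ± 0.10 and was not called.

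Among large-subunit genes, 2 of 20 canonical members tested were higher and none lower, with a median of 0.11. The share higher was 10%, against 17.8% of all genes. Rpl14, which encodes a large-subunit protein, had signals of 2286, 2009 and 2364 in bone marrow and 3681, 3337 and 3329 in fetal liver. The arrays were fully separated, with a log2 fold change of 0.64 ± 0.09 (SE, n = 3 each; limma adjusted p = 7.38e-04, and at most 0.00616 over 17 alternatives). Another 5 probe sets, with mean signals of 6770 to 8299, are annotated to Rpl14 together with a pseudogene of it. They had log2 fold changes of 0.20 to 0.23 and none of the 5 was called, so the size of the Rpl14 difference depends on the probe set.

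Rpl41, the gene of the smallest ribosomal protein, passed the test narrowly. Its signals were 4307, 4227 and 4123 in bone marrow and 4745, 6375 and 4994 in fetal liver, where replicate 2 stood above the others. The log2 fold change was 0.34 ± 0.11 (limma adjusted p = 0.0377). Of its 4 probe sets this was the only one called, and the others had log2 fold changes of -0.04, -0.06 and 0.68. The call was lost in 9 of 17 alternatives (adjusted p 0.00503 to 0.826), among them leaving out any bone marrow array or fetal liver replicate 3, and without probe sets named _x_at, which can bind related transcripts, the value was -0.063.

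Rpl11, whose protein joins Rpl5 and 5S RNA in a particle that can restrain MDM2 and so stabilise p53, had signals of 8311, 8260 and 8072 in bone marrow and 8404, 10182 and 8657 in fetal liver. The arrays did not overlap but the difference missed the threshold (0.14 ± 0.08, limma adjusted p = 0.205). Rpl19 and Rpl35, 2 of the 3 genes of highest signal, were at 0.20 ± 0.12 and 0.13 ± 0.10. Both were highest on fetal liver replicate 2, at 15546 and 13758, and neither passed the test. Rpl12 (-0.24 ± 0.17) was lower on average with overlapping arrays; its lowest bone marrow value, 713 against 1117 and 1089, was on replicate 1. Without that array it was called lower (-0.45, limma adjusted p = 0.0217). A pair of brighter probe sets annotated to Rpl12 together with other genes, of mean signals 7870 and 7468, were at -0.014 ± 0.069 and 0.17 ± 0.13, and neither was called. The stalk genes Rplp0 and Rplp2, whose proteins recruit the elongation factors, were both at 0.15, and neither was called.

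None of the 20 small-subunit genes tested with limma was called, against 36.1% of all genes and 19.6% of those of mean signal of at least 4096. None reached an unadjusted p under 0.05, against 23.8% higher and 22.2% lower over all genes. The median of the 20 was 0.05, with a range of -0.07 to 0.18. Rpsa, also known as the laminin receptor precursor, was the upper end, with signals of 9762, 10568 and 9551 in bone marrow and 10003, 13634 and 10474 in fetal liver. Rps6, the substrate of the S6 kinases, was the lower end. Its signals were 4203, 4156 and 4389 in bone marrow and 4076, 4036 and 4064 in fetal liver, so the fetal liver arrays lay below by a small margin (-0.07 ± 0.07, limma adjusted p = 0.485). Rps20, the small-subunit gene of highest signal, was at -0.01 ± 0.07.

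Genes mutated in Diamond-Blackfan anaemia showed small values. Of 23 such ribosomal protein genes listed, 13 were tested and none was called with limma, nor at an unadjusted p under 0.05. The share called was 36.1% over all genes and 19.6% among genes of mean signal of at least 4096. The median of the 13 was 0.05 and their range -0.01 to 0.16. Rps19, a gene often mutated in that disease, had signals of 8503, 9371 and 8692 in bone marrow and 8822, 10850 and 8281 in fetal liver (0.07 ± 0.10, 95% interval -0.16 to 0.29). Rps14, whose reduced dosage contributes to the anaemia of a myelodysplastic syndrome, was at 0.05 ± 0.08 (95% interval -0.14 to 0.24). Signals of both genes overlapped between the tissues.

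Members with several probe sets mostly gave small values on all of them. Of 22 genes with 2 or more tested probe sets, none had probe sets called in opposite directions. Rpl13a had 2 of 4 called higher (0.38 ± 0.07 and 0.46 ± 0.09), while its brightest was at 0.09 ± 0.10. Rps24, a small-subunit gene, had a dim probe set of mean signal 663 that was lower in fetal liver (-0.90 ± 0.22, limma adjusted p = 0.0148), but its other 4 ranged from -0.003 to 0.07. Rpl22 had 1 of 3 called lower (-0.48 ± 0.12), also its dimmest. The other probe set of Rps6 was dim, with a mean signal of 36.2, and at -0.89 was not called. Bright probe sets annotated to Rps6 together with a pseudogene of it, of mean signals 8895 to 9965, were at 0.04 to 0.15. Dimmer ones, of mean signals 62.0 to 913, ranged from -0.11 to 0.24. None of these shared Rps6 probe sets was called. Tested one by one, 7 of the 99 probe sets of these genes were called higher and 2 lower; of all 27022 probe sets tested 26.8% were called, 11.8% higher and 15% lower.

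Many ribosomal protein genes have processed pseudogenes, and 34 of 77 canonical genes listed had no probe set with 1 symbol. A further 106 tested probe sets were annotated to a ribosomal protein gene together with other genes, mostly such copies, and name no gene here. Their range was also narrow: 4 were higher and 0 lower with limma, the median was 0.11, and no value reached 2-fold (range -0.51 to 0.54). All 4 had mean signals under 4096, and none of the 79 probe sets of at least 4096 was called.

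On single arrays most of these genes deviated in the same direction. Fetal liver replicate 2 had the highest fetal liver signal for 42 of the 47 genes, and its median gene lay 0.17 log2 units above that gene's fetal liver mean. Replicates 1 and 3 lay 0.08 and 0.11 below it. Bone marrow replicate 2 was the highest bone marrow array for 36 of 47 genes, with a median deviation of 0.07. On fetal liver replicate 2 the median deviation was 0.09 for the 779 other genes of high signal and -0.01 over all genes.

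**Figure D5:**
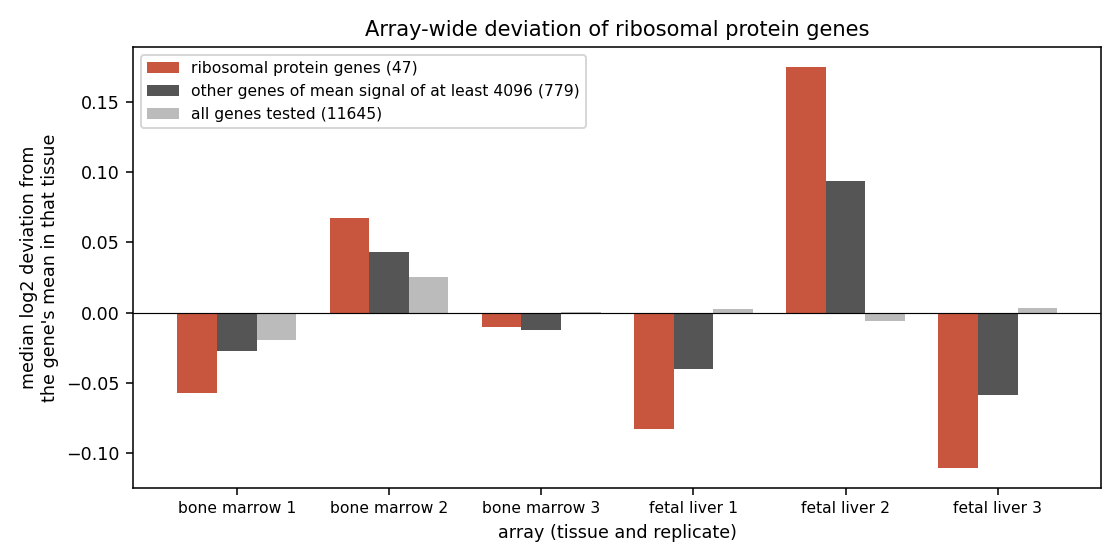
Median deviation, in log2 units, of each array from the gene's mean in the same tissue, for the 47 ribosomal protein genes (red), the 779 other genes of mean signal of at least 4096 (dark grey) and all 11645 genes tested (light grey). The red bar of fetal liver replicate 2, at 0.17, is the tallest, and the red and dark grey bars have the same sign on each array.

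The direction of the small shift common to these genes rested on that array. With all arrays, 42 of 47 genes had a positive log2 fold change and 5 a negative one. Other bright genes leaned the same way: of the 779 of mean signal of at least 4096, 596 were positive and 183 negative. Their median was 0.11, against 0.10 for the 38 ribosomal protein genes of that signal. Without fetal liver replicate 2 the counts for the 47 genes were 23 and 24 and their median was -0.0003. The scaling also moved it. Median centring moved the median of all genes from 0.04 to 0.38 and that of the ribosomal protein genes to 0.43. It shifts every gene on an array equally, so the 0.05 between these medians could not change. Relative to all genes the ribosomal protein genes lay 0.06 below under quantile normalization and 0.08 below under cyclic loess normalization. The common shift thus has no settled direction. Rps4l, Rpl39l and Rpl14 were called higher in each of the 17 alternatives, those included.

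Other genes of the translation machinery were also near no difference. Of 16 further genes known for messages with a pyrimidine start, 15 were tested with limma and none was called. The share called was 36.1% over all genes and 19.6% among those of mean signal of at least 4096. The median of the 15 was 0.09, with a range of -0.005 to 0.18. At an unadjusted p under 0.05 the count was 1, higher. Npm1, a nucleolar chaperone, had the smallest adjusted p of that list (0.16 ± 0.07, limma adjusted p = 0.104). The elongation factor genes Eef1a1 and Eef2 were at 0.12 ± 0.10 and 0.05 ± 0.08. Fau, a ribosomal protein gene whose symbol does not follow the family's pattern, was at 0.13 ± 0.10 and did not pass.

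Among 23 genes for chaperones of ribosomal proteins and late steps of subunit assembly and export, 5 were higher and none lower, with a median of 0.15. The share higher was 21.7%, near the 17.8% of all genes. Lsg1, the GTPase that releases the export adaptor from the large subunit, rose from 600 ± 38.0 to 843 ± 32.1 (SD, n = 3 each; 0.49 ± 0.11, limma adjusted p = 0.00855). Bysl and Ltv1, small-subunit assembly factors, rose by 0.42 ± 0.11 and 0.43 ± 0.11, and Xpo1, the nuclear export receptor, by 0.26 ± 0.07. Eif6, which keeps the large subunit from joining early, was also called (0.34 ± 0.10). Tsr2, the chaperone of Rps26, had a value of -0.22 ± 0.10 and was not called. Of 7 genes that control translation of pyrimidine-start messages, 1 was higher and none lower (14.3% higher, against 17.8% of all genes). It was Rptor, a subunit of mTOR complex 1 (0.53 ± 0.16, limma adjusted p = 0.0277). Larp1, which binds these messages, was at 0.07 ± 0.07 and was not called.

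The 3 sort marker genes were well expressed in both tissues, with Itga2b (CD41) at 3330 to 5307 over the 6 arrays. Kit, the c-kit gene, was lower in fetal liver (-0.62 ± 0.16, limma adjusted p = 0.0141) and Gata1 higher (0.49 ± 0.12, limma adjusted p = 0.0138). Slamf1 (CD150) was at 1842, 2202 and 2303 in bone marrow and 1014, 2618 and 3024 in fetal liver. Of 6 megakaryocyte markers 1 was higher and none lower, against 17.8% higher and 18.3% lower over all genes. The summed signal of these 6 markers was 19007 to 22577 in bone marrow and 14105, 25624 and 23036 on fetal liver replicates 1, 2 and 3. In that sum fetal liver replicate 1 lay below every bone marrow array. Most markers of other blood cells were lower in fetal liver, against 18.3% of all genes. All 9 granulocyte and monocyte markers tested were lower (summed signal 48679 to 61292 in bone marrow and 5962 to 7669 in fetal liver). So were 4 of 4 mast cell and basophil markers (3602 to 3906 against 152 to 278), 4 of 4 macrophage markers (6 genes summed, 999 to 1225 against 80.6 to 104) and 5 of 7 lymphoid markers (8 genes summed, 3187 to 4753 against 1434 to 1571). Of 4 erythroid markers 2 were lower and 1 higher (5 genes summed, 3799 to 9789 against 2145 to 2789), and of 3 hepatoblast markers tested 1 was lower and 1 higher (5 genes summed, 249 to 300.1 against 155 to 210). No marker was listed at 0. The part of these cells in the values of Rps4l, Rpl39l and Rpl14 was not tested.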

How the data were processed

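The submitters' processing notes name MAS5; the version and array software settings are not given in the sources used here. The deposited table gives a linear signal intensity for each probe set on each array, scaled so that every column has a trimmed mean (2% off each tail) of about 500. Signals were log2-transformed with no offset. Of 45101 probe sets, 64 controls were set aside, and those with a mean log2 signal above the 40th percentile (a signal of 22.9) were kept. Each gene with 1 symbol in the platform annotation was represented by its probe set of highest mean, which gave 11645 genes. limma (version 3.58.1, R 4.3.3) fitted tissue alone with an intensity-trended prior over all genes, with Benjamini-Hochberg adjustment and a threshold of 0.05; errors of log2 fold changes are its standard errors. With 3 arrays against 3 an exact permutation test cannot go below 0.1 and was not used. The number of arrays limits the precision. No pair of arrays was identical, and 0 columns were unmapped.

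Alternatives covered the filter, scaling, an offset, the choice of probe set, the variance prior, the replicate block and leaving out each array; testing each probe set on its own was added after seeing the data. Probe sets named _x_at (14 of the 49 used), _s_at (2) or _a_at (17) can detect several transcripts. The promoter motif TCGCGAG is the core of a longer palindrome that was searched first, and was shortened after its matches were seen. The genes and lists were chosen with earlier results of these data known. Named genes were called members of at least 2-fold, those of smallest adjusted p, the 3 brightest and dimmest, paralogs with their partners, and a few genes of known role; Rpl12, Rpl13a, Rps6 and Rps24 were added after their values were seen. The main fit did not pair samples by replicate number, and over all genes the deviations of same-numbered arrays correlated at -0.11 to 0.07. Median deviations of the ribosomal protein genes did share a sign on same-numbered arrays. In bone marrow and fetal liver they were -0.06 and -0.08 on replicate 1, 0.07 and 0.17 on replicate 2, and -0.01 and -0.11 on replicate 3. Whether same-numbered arrays were handled together was not tested. The fitting step was tested on simulated data. Tables were joined in pandas 2.3.3 (Python 3.11.15) and drawn with matplotlib 3.10.9.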

Additional observations from a re-analysis of the deposited data

How the results depend on the processing

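Rps4l, Rpl39l and Rpl14 kept their direction and their call in all 17 alternatives. Each had 1 probe set annotated to it alone, so the alternatives in the choice of probe set could not move their fold changes. The filters, variance priors and replicate block could change only their adjusted p. Probe sets annotated to Rpl14 together with a pseudogene were not among these alternatives. The count of ribosomal protein genes called higher (4 of 47) ran from 3 to 6 with 1 array left out and was 34 under median centring, where 57.8% of all genes were called, 5377 higher and 1348 lower. The count called lower was 3 under cyclic loess normalization, 1 without probe sets named _x_at, and 0 to 1 with 1 array left out. The median log2 fold change was 0.43 under median centring, -0.066 under cyclic loess normalization, and -0.0003 to 0.15 with 1 array left out. Rpl41 was at -0.063 without probe sets named _x_at. The replicate block gave 4 higher, 0 lower and a median of 0.09, and changed no call among these genes; over all genes it called 1856 higher and 1991 lower against 2074 and 2134. The causes were not tested. Signals of the dimmest genes tested, Rpl37 and Rpl39, varied several-fold within a tissue, and the number of arrays limits the precision of all values.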
